A study of Homo sapiens with 6 samples.

Results

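The genes described here are 8 epithelial acute-phase and antimicrobial genes: LCN2, SLPI, PI3, SAA1, SAA2, PTX3, ICAM1 and TNFAIP2. They were chosen by name, and all 8 were found among the 58302 genes of the deposited table. RNA was measured in PC-3, an established human cell line from a prostate cancer that had spread to bone. One group carried a lentivirus for overexpression of BHLHE22, a neural transcription factor of the bHLH (basic helix-loop-helix) class. The control group carried a blank-vector lentivirus, so both groups are PC-3 cells exposed to a lentivirus. Each group had 3 libraries (n = 3). The sources used here do not give the promoter of the transgene, the time after infection or whether the cells were a pool or a clone. Nothing says that replicates were separate cultures. The p-values therefore reflect only how much these libraries differ, and that spread may be technical.

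Epithelial cells defend surfaces by secreting proteins that starve, coat or kill microbes and that restrain the proteases of invading neutrophils. Many of these genes are switched on by IL-1, TNF, IL-17 and IL-6 family cytokines, through the transcription factors NF-kappaB, IkappaB-zeta, C/EBP and STAT3. The liver makes serum amyloid A in large amounts during inflammation, and epithelial and tumour cells can make it as well. The comparison asks which of these genes differ between BHLHE22-overexpressing and vector PC-3 cells.

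Total counts ran from 12186723 to 15949537 per library. BHLHE22 itself had 1 count in each vector library and 98, 92 and 133 counts in the BHLHE22 libraries. Markers of PC-3 cells were present: the epithelial genes KRT8, KRT18, KRT19, EPCAM and CDH1 and the mesenchymal gene VIM, 6 in all, passed the filter on low counts. Their summed level was 1919 to 2085 CPM in vector and 2358 to 2452 CPM in BHLHE22 libraries: EPCAM and VIM rose, KRT8 and KRT18 fell, and KRT19 and CDH1 did not pass. Of 6 genes of androgen-responsive prostate cells, 2 passed the filter, of which 1 rose and 1 fell. The fall was that of TMPRSS2, from 161 to 68.5 CPM (log2 fold change -1.23), and the rise is not reported here. KLK3, the gene of prostate-specific antigen, had 0 counts in every library. Neutrophils are a rich source of LCN2 and SLPI in the body. Of 9 blood and neutrophil markers, 8 failed the filter, and TYROBP, HBB and S100A12 had 0 counts in every library. The summed level of the 9 markers was 52.0 to 59.7 CPM (counts scaled to a common library size, per 1e6 counts) in vector and 44.8 to 52.3 CPM in BHLHE22 libraries, nearly all of it CD68. The 4 hepatocyte markers summed to 0.211 to 0.612 CPM in vector and 0.156 to 0.574 CPM in BHLHE22 libraries, and TTR had 0 counts. Of 6 fibroblast and endothelial markers, COL1A1, LUM and PECAM1 passed, of which LUM rose (log2 fold change 2.16) and the others fell (-0.47 and -1.27). The list summed to 112.8 to 127 CPM in vector and 68.4 to 77.0 CPM in BHLHE22 libraries. The part of these markers in the results was not tested.

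All 8 genes passed the filter and were tested. In BHLHE22 cells 5 rose (SAA2, SAA1, PI3, LCN2 and ICAM1), PTX3 fell, and SLPI and TNFAIP2 did not pass the test. Calls rest on edgeR's quasi-likelihood test at a threshold of 0.05 for the adjusted p. Of all genes, 49.4% of the 15945 tested were called, 25.1% higher and 24.3% lower. The groups did not overlap for 6 of the 8 genes, against 60.5% of all tested genes. The median log2 fold change was 0.77 over the 8 genes and 0.00 over all tested genes. SAA1 and SAA2 enter this median and the 5 rises. Both passed the filter only with the help of the BHLHE22 libraries, where they were high, and they may share reads. The 8 genes were chosen with earlier results of these data known, so these medians describe them and were not tested. In bulk RNA, a change in the share of cells that express a gene cannot be told apart from a change in RNA per cell.

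**Figure D1:**
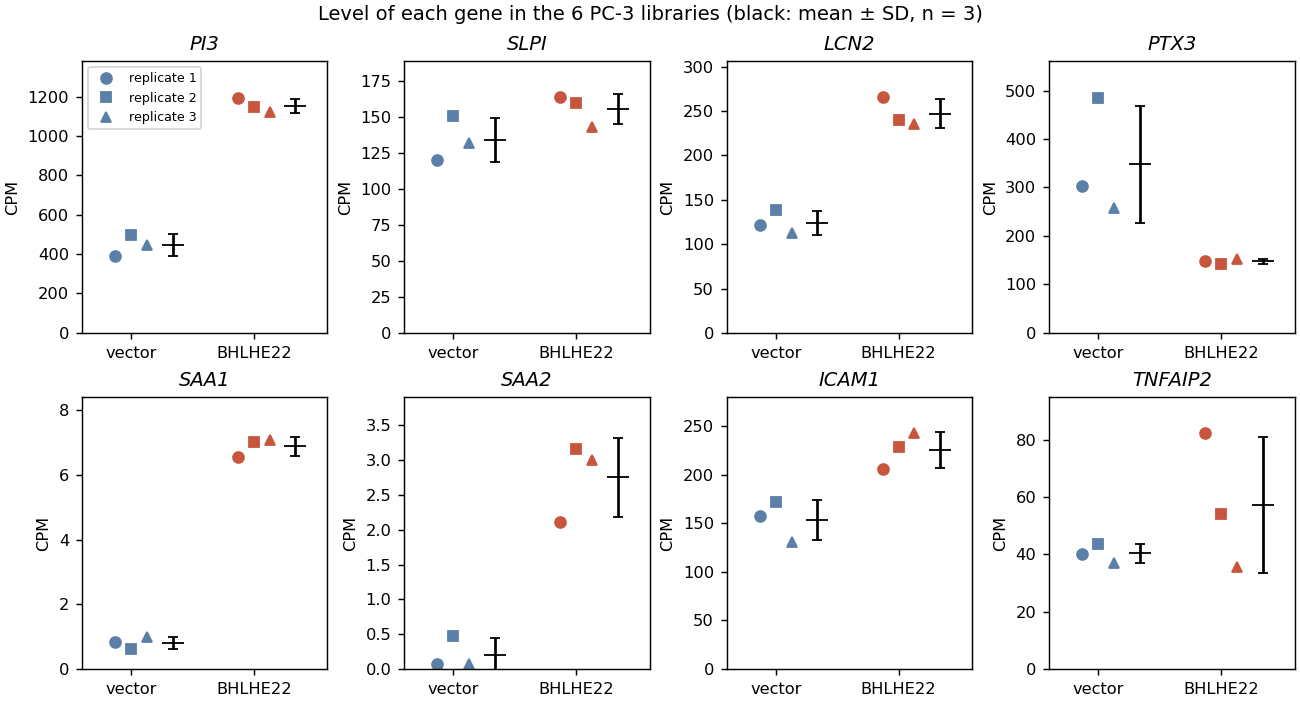
Level of each gene (vertical axis, CPM after TMM scaling, linear from 0) in the 3 vector and 3 BHLHE22 libraries, with marker shapes for replicate numbers and black bars for the mean ± SD. PI3, LCN2, SAA1, SAA2 and ICAM1 lie higher in every BHLHE22 library, PTX3 lies lower, and the groups overlap for SLPI and TNFAIP2.

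The levels of the genes span a wide range. They were compared as CPM per kilobase of exon, with overlapping exons of a gene merged. In vector cells the order was PI3 at 772 ± 95, SLPI at 225 ± 26, PTX3 at 179 ± 62, LCN2 at 77.7 ± 8.4, ICAM1 at 41.4 ± 5.6, TNFAIP2 at 8.02 ± 0.66, SAA1 at 1.02 ± 0.24 and SAA2 at 0.0931 ± 0.1045 CPM per kilobase (SD, n = 3, as for every ± here). The ranges of SLPI and PTX3 overlapped; those of the other neighbours in this order did not. In BHLHE22 cells LCN2 (155 ± 10) stood above PTX3 (76.1 ± 2.8 CPM per kilobase). The rest of the order was the same, and only the neighbours TNFAIP2 (11.4 ± 4.7) and SAA1 (8.65 ± 0.36) overlapped.

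LCN2 encodes lipocalin-2, a secreted protein that binds bacterial siderophores and so withholds iron from bacteria. Its level was 121, 139 and 112 CPM in vector replicates 1 to 3 and 266, 240.3 and 236 CPM in BHLHE22 replicates 1 to 3. Every BHLHE22 library lay well above every vector library. The rise was 1.99-fold (log2 fold change 0.99 with an SE of 0.10, and an edgeR quasi-likelihood adjusted p of 0.000330). The gene (ENSG00000148346) lies on chromosome 9 from 128149071 to 128153455 on GRCh38, on the plus strand. PTX3 (ENSG00000163661, chromosome 3, 157436789 to 157443628, plus strand) encodes pentraxin 3, a long pentraxin secreted at sites of inflammation that marks microbes for complement and phagocytes. It moved the other way, with 302, 484 and 257 CPM in vector and 148, 142 and 153 CPM in BHLHE22 libraries. The vector libraries differed widely among themselves, with replicate 2 highest, while the BHLHE22 libraries lay close together and below all of them. The fall was 2.35-fold (log2 fold change -1.23 with an SE of 0.23, and an edgeR quasi-likelihood adjusted p of 0.00559). Without vector replicate 2 it was -0.92 (edgeR quasi-likelihood adjusted p = 0.000943).

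The promoters of this pair are shown because LCN2 and PTX3, both known NF-kappaB target genes, moved in opposite directions. Promoter windows of 300 bases (250 before the start site and 50 after) were found in RefSeq (GRCh38.p14) for 4 of the 8 genes: LCN2, PTX3, ICAM1 and TNFAIP2. Each stretch below is the part before the start site with no exon in GENCODE 29. It is written 5′ to 3′ on the plus strand, and capitals mark a match to the kappaB consensus. The LCN2 stretch lies before the RefSeq start site but inside the gene's span in GENCODE, which begins at 128149071.
LCN2, chr9:128149265-128149440: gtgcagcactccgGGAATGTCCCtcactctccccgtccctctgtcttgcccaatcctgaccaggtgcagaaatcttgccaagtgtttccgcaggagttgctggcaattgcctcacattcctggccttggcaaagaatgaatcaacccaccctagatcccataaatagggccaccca
PTX3, chr3:157436600-157436788: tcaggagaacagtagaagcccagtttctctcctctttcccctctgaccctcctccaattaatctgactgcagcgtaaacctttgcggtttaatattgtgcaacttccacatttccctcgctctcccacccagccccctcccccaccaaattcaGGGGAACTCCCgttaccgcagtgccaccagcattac

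Both stretches hold a kappaB match. In LCN2 the match is on the other strand, and its first base shown is 175 bases before the start site. In PTX3 a pair of overlapping matches begins 97 and 96 bases before it. Of 35116 RefSeq promoter windows of the same length, 11.3% held such a match to GGGRNNYYCC on either strand. The windows of ICAM1 and TNFAIP2 held 0 matches to these letters, and a site spelled otherwise would be missed. LCN2, PTX3 and TNFAIP2 each had 1 match to the C/EBP motif TTNNGNAA (36.8% of all windows). LCN2 had 1 match to the AP-1 motif TGANTCA (7.71% of windows), and ICAM1 had 1 match to the STAT motif TTCNNNGAA (7.66%). The E-box CANNTG, the kind of motif that bHLH factors bind, was found 4 times in the window of LCN2 and 2 times in ICAM1. PTX3 had 1 match, after the start site, and TNFAIP2 had 0. Of all windows, 68.7% held at least 1 match, which gives no background for the number of matches in a window. The interferon-stimulated response element (3.57% of windows) was found in 0 of the 4. These matches describe the letters only.

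SLPI and PI3 encode small secreted inhibitors of neutrophil elastase that share the whey acidic protein (WAP) fold; PI3 is also called elafin or trappin-2. Both lie in the WAP gene cluster on chromosome 20, PI3 (ENSG00000124102) from 45174876 to 45176544 on the plus strand and SLPI (ENSG00000124107) from 45252239 to 45254564 on the minus strand. PI3 had the highest level of the 8 genes in every library. It measured 389.7, 499 and 447 CPM in vector and 1193, 1147 and 1120 CPM in BHLHE22 libraries, without overlap. The rise was 2.59-fold (log2 fold change 1.37 with an SE of 0.10, and an edgeR quasi-likelihood adjusted p of 0.000111). SLPI measured 120.2, 151 and 132 CPM in vector and 164, 159.9 and 144 CPM in BHLHE22 libraries. The lowest BHLHE22 library lay below the highest vector library. The log2 fold change was 0.21 with a 95% interval from -0.03 to 0.45 (edgeR quasi-likelihood adjusted p = 0.126), so the interval reaches a rise of 1.37-fold. SLPI passed the test in the fit without vector replicate 2 (0.30, edgeR quasi-likelihood adjusted p = 0.0443) and with library sizes left unscaled (0.36, edgeR quasi-likelihood adjusted p = 0.0163).

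The count of PI3 relative to SLPI within a library does not depend on scaling between libraries. There were 3.24, 3.32 and 3.38 PI3 counts per SLPI count in vector libraries and 7.28, 7.17 and 7.80 in BHLHE22 libraries. The ratio was thus nearly constant within each group and higher in every BHLHE22 library. The ratio of LCN2 to PTX3 counts was 0.402, 0.287 and 0.438 in vector and 1.8002, 1.69 and 1.54 in BHLHE22 libraries. LCN2 gave fewer counts than PTX3 in all vector libraries and more in all BHLHE22 libraries. These ratios are given as values, with no test.

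**Figure D2:**
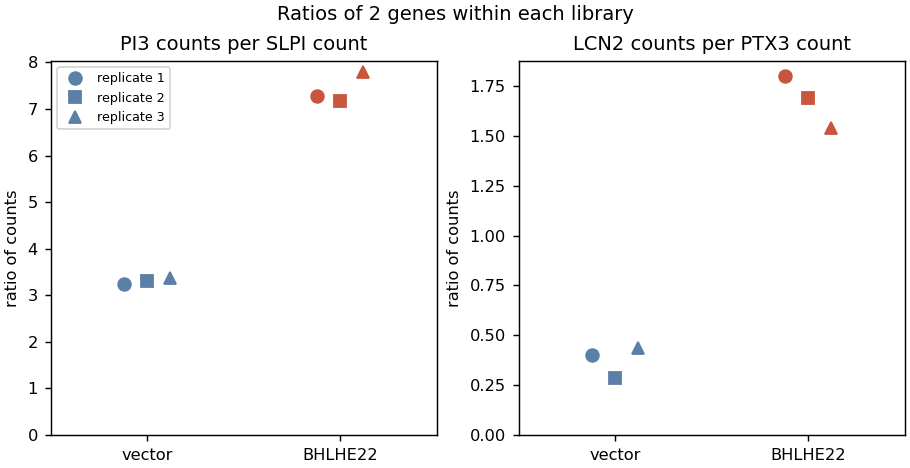
Counts of PI3 per count of SLPI (left) and of LCN2 per count of PTX3 (right) in each of the 6 libraries (vertical axes, ratio of counts, linear from 0). The PI3 to SLPI ratio is 3.24 to 3.38 in vector and 7.17 to 7.80 in BHLHE22 libraries, and the LCN2 to PTX3 ratio passes 1 only in BHLHE22 libraries.

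Serum amyloid A is an acute-phase lipoprotein component, and SAA1 and SAA2 are near-identical neighbours on chromosome 11. They had the lowest levels and the largest folds of the 8 genes. SAA1 (ENSG00000173432, 18266174 to 18269977, plus strand) had 11, 9 and 14 counts in vector and 84, 98 and 118 in BHLHE22 libraries. Its CPM went from 0.810 ± 0.188 to 6.89 ± 0.29, an 8.45-fold rise (log2 fold change 3.08 with an SE of 0.21, and an edgeR quasi-likelihood adjusted p of 7.91e-05). SAA2 (ENSG00000134339, 18239223 to 18248643, minus strand) had 1, 7 and 1 counts in vector and 27, 44 and 50 in BHLHE22 libraries. The groups did not overlap for either gene, although 7 of the 9 vector counts of SAA2 came from replicate 2. SAA2 rose 12.5-fold (log2 fold change 3.65 with an SE of 0.52, and an edgeR quasi-likelihood adjusted p of 0.00111). Without vector replicate 2 its log2 fold change was 5.09. Among the 15945 tested genes, ordered by log2 fold change, SAA2 was number 34 and SAA1 number 64 from the top. Both passed the filter on low counts only with the help of the BHLHE22 libraries, where they were high. The filter thus partly sets these ranks.

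The split of reads between SAA1 and SAA2 is uncertain, since such copies can share reads and the sources used here do not give the counting options. Their summed level was 1.02 ± 0.10 CPM in the vector group and 9.64 ± 0.85 CPM in the BHLHE22 group. The sum rose 9.40-fold (log2 fold change 3.23 with an SE of 0.17, and an edgeR quasi-likelihood adjusted p of 3.21e-05). SAA1 took 91.7%, 56.25% and 93.3% of the counts of the pair in the vector libraries, which rest on 12, 16 and 15 counts, and 75.7%, 69.0% and 70.2% in the BHLHE22 libraries. Vector replicate 2 lay below all BHLHE22 libraries and the other vector libraries above them. SAA2-SAA4, a readthrough gene that shares 267 of the 2227 exon bases of SAA2, had 0, 2 and 0 counts in vector and 13, 5 and 8 in BHLHE22 libraries. SAA4, the constitutive serum amyloid A gene, had 0 against 4 counts.

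ICAM1 encodes a surface adhesion molecule that leukocytes grip through beta-2 integrins. It measured 158, 172 and 131 CPM in vector and 206, 228 and 243 CPM in BHLHE22 libraries. The groups did not overlap, and the rise was 1.47-fold (log2 fold change 0.56 with an SE of 0.12, and an edgeR quasi-likelihood adjusted p of 0.00601). The gene (ENSG00000090339) lies on chromosome 19 from 10270835 to 10286615. The antisense genes AC011511.2 and AC011511.5 overlap it, with 2 and 15 counts over all 6 libraries against 16323 for ICAM1. TNFAIP2 (ENSG00000185215, chromosome 14, 103123442 to 103137439) encodes M-Sec, a TNF-induced protein related to the exocyst. It measured 40.3, 43.7 and 37.0 CPM in vector and 82.3, 54.0 and 35.5 CPM in BHLHE22 libraries. BHLHE22 replicate 3 lay below all vector libraries and replicate 1 far above them. The log2 fold change was 0.50 with a 95% interval from -0.20 to 1.21 (edgeR quasi-likelihood adjusted p = 0.198). It was 0.16 without BHLHE22 replicate 1 (edgeR quasi-likelihood adjusted p = 0.526) and 0.76, past the threshold, without replicate 3 (edgeR quasi-likelihood adjusted p = 0.0185).

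**Figure D3:**
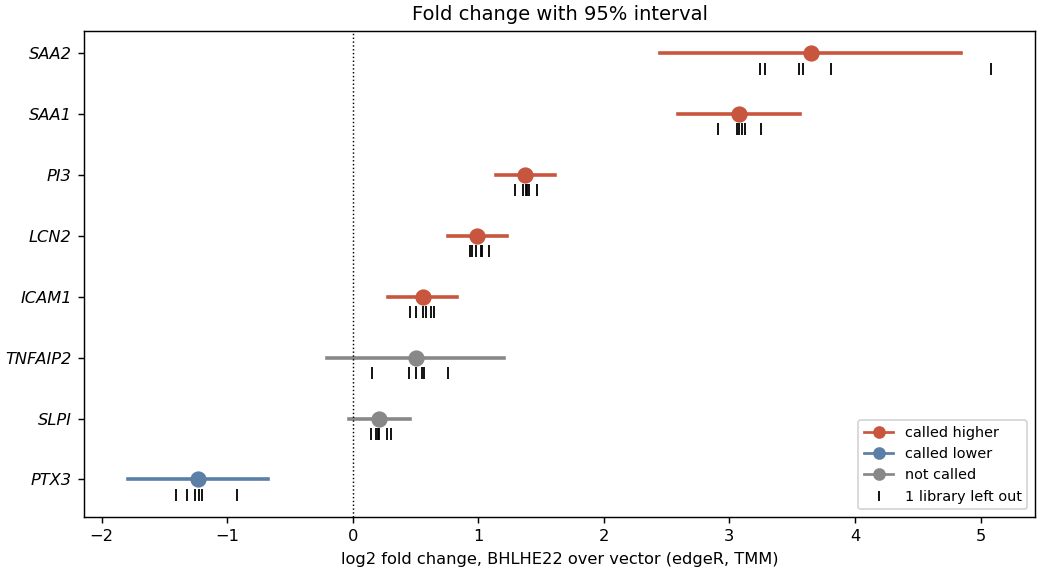
Log2 fold change of each gene, BHLHE22 over vector (horizontal axis), with its 95% interval as a line and black ticks for the fits that leave out 1 of the 6 libraries. The intervals of SLPI and TNFAIP2 include 0, the ticks of SAA2 reach 5.09, and those of PTX3 stay between -1.41 and -0.92.

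Vector replicate 2 had the highest level among the vector libraries for 7 of the 8 genes, all but SAA1. Over all tested genes, 35.2% were highest in that library. In the BHLHE22 group the highest library was replicate 1 for 4 genes, replicate 3 for 3 and replicate 2 for 1. In the fits without vector replicate 2, LCN2, PI3 and ICAM1 had log2 fold changes of 1.08, 1.47 and 0.65.

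The genes with the most similar pattern were sought by Pearson correlation of log2 CPM over the 6 libraries, among genes with a mean of at least 10 CPM. With 6 points in 2 groups, such values are high for many genes and describe these libraries only. For PTX3 they were MMP13, the gene of collagenase-3 (r = 0.999, log2 fold change -2.72), and PGM2L1 (r = 0.999). For SAA1 they were ESM1, an endothelial-secreted proteoglycan gene (r = 1.00, log2 fold change 3.67), and LRRC8B (r = 1.00). PI3 was nearest to TMEM47 and CLIC1P1, LCN2 to PIP4P2 and VASP, SAA2 to HAS2 and ERP29, and ICAM1 to ADH5 and PTMAP5, all with r of 0.995 or more. A high r does not mean a change of similar size. Log2 fold changes were 1.45 for TMEM47, 0.31 for CLIC1P1, 0.31 for PIP4P2 and 0.24 for VASP. They were 0.95 for HAS2, 0.16 for ERP29 (not called), 0.41 for ADH5 and 0.39 for PTMAP5. SLPI was nearest to RTTN (r = 0.993) and MAP2K1 (r = 0.987), and TNFAIP2 to PDIA4 (r = 0.982) and HIST1H2BC (r = 0.979).

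In the lists that follow, 53.8% to 62.1% of the tested genes were called, against 49.4% of all tested genes. The lists share some genes, such as CD14. Most other acute-phase and antimicrobial genes were too low to test. Of 46 such genes, 36 failed the filter on low counts and 17 had 0 counts in every library, among them SERPINA3. LTF, the gene of the iron-binding lactoferrin, had 1 count in all, and WFDC2, another WAP gene, had 2. Of the 10 tested, 2 rose, 4 fell and 4 did not pass. Complement C3 rose from 15.8 ± 0.4 to 42.9 ± 2.1 CPM (log2 fold change 1.44, edgeR quasi-likelihood adjusted p = 7.74e-05). CP, the gene of the copper carrier ceruloplasmin, rose by 0.93 on the log2 scale. TFF3, a mucosal repair peptide, fell from 15.1 ± 1.0 to 3.94 ± 0.63 CPM, and CD14, a coreceptor for bacterial lipopolysaccharide, fell from 2.45 ± 0.59 to 0.474 ± 0.111 CPM. The WAP gene WFDC3 fell by 0.84. SERPINA1, the gene of the elastase inhibitor alpha-1-antitrypsin, measured 2.91 ± 0.31 and 3.02 ± 0.25 CPM (not called). The median log2 fold change of the 10 was -0.31.

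Relatives of the 8 genes by protein family moved in both directions. Of 39 lipocalin, pentraxin, WAP, exocyst-like and adhesion genes, 12 were tested, of which 3 rose, 4 fell and 5 did not pass, with a median of -0.09. MCAM, an adhesion molecule of the immunoglobulin family like ICAM1, rose from 49.2 ± 2.1 to 109 ± 20.01 CPM. ANOS1, which carries a WAP domain, rose by 1.13 on the log2 scale. ALCAM, another adhesion gene, fell from 758 ± 94 to 451 ± 93 CPM, and the lipocalin gene RBP4 fell by 0.36.

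**Figure D4:**
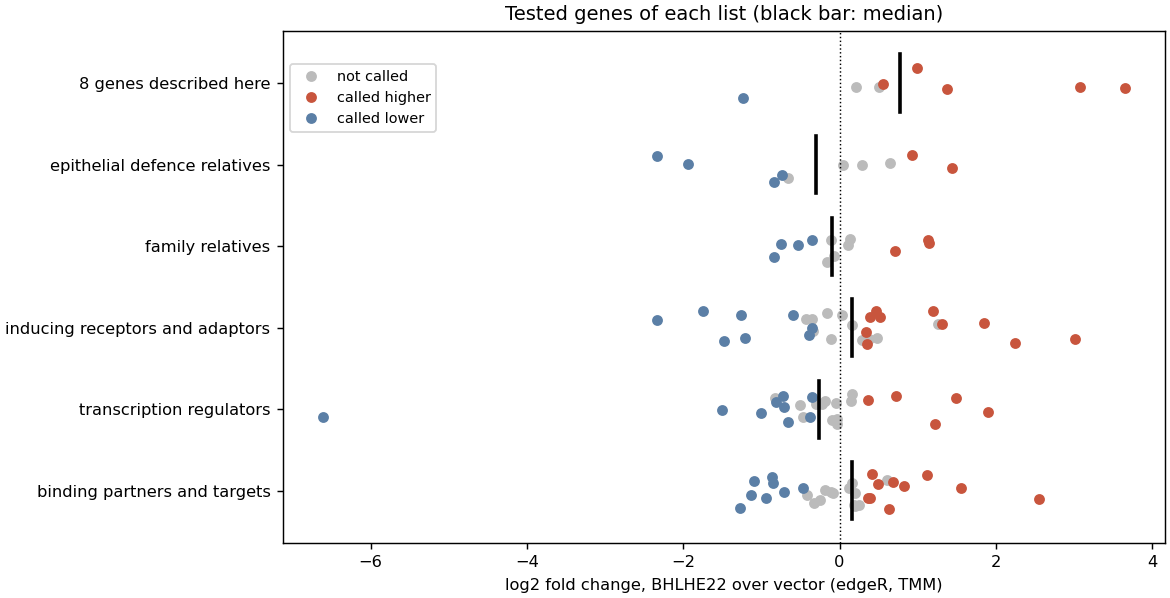
Log2 fold change, BHLHE22 over vector (horizontal axis), of the tested genes of each list (rows), coloured by call, with a black bar at the list's median. The 8 genes, with SAA1 and SAA2 included, have a median of 0.77, and the other lists lie between -0.31 and 0.16. The point at the far left is ELF5, which had 2 counts in BHLHE22 cells.

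Genes of the receptor pathways that can switch these genes on, mostly receptors and adaptors, moved in both directions. Of 29 tested, 10 rose, 8 fell and 11 did not pass, and the count of rises was 6 when vector replicate 1 was left out and 5 when vector replicate 2 was. IL1RAP, the accessory chain of the IL-1 receptor, rose from 5.25 ± 0.76 to 18.9 ± 1.7 CPM, and IL22RA1, a chain of the IL-22 receptor, from 1.57 ± 0.61 to 7.49 ± 0.83 CPM. IL17RE, a chain of the IL-17C receptor, fell from 10.6 ± 1.1 to 3.81 ± 1.03 CPM. IRAK2, a kinase of IL-1 and Toll-like receptor signalling, fell from 183 ± 43 to 78.9 ± 4.0 CPM.

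Of 26 tested transcription regulators, 5 rose, 9 fell and 12 did not pass (median -0.27). TNFAIP3, the feedback inhibitor A20 of NF-kappaB, rose from 15.9 ± 1.8 to 44.8 ± 1.5 CPM, and the stress factor ATF3 by 1.22 on the log2 scale. CEBPD, which encodes C/EBP-delta, an activator of acute-phase genes, fell from 38.0 ± 20.04 to 13.4 ± 0.8 CPM (log2 fold change -1.51, edgeR quasi-likelihood adjusted p = 0.0167). Its vector libraries held 32.1, 60.3 and 21.6 CPM, highest in replicate 2 as for PTX3. CEBPB had a log2 fold change of -0.19 and NFKBIZ, the gene of IkappaB-zeta, of -0.50 (edgeR quasi-likelihood adjusted p = 0.196 and 0.262). The epithelial ETS factor ELF3 measured 179 ± 31 and 101 ± 39 CPM (edgeR quasi-likelihood adjusted p = 0.0694), and its relative SPDEF fell by 0.72. ELF5, of the same family, had 46, 135 and 46 counts in vector and 0, 0 and 2 in BHLHE22 libraries, so more of its vector counts came from replicate 2 than from the others together. STAT3, a known inducer of LCN2 and SAA genes, is known to be missing from PC-3 cells. It had 12 counts over the vector and 1 over the BHLHE22 libraries.

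Partners of the proteins were present in part. Of 31 tested, 10 rose, 8 fell and 13 did not pass (median 0.16). SLC22A17, a cell-surface receptor for lipocalin-2, fell from 14.8 ± 0.6 to 7.70 ± 1.07 CPM (log2 fold change -0.94, edgeR quasi-likelihood adjusted p = 0.00134). FTH1, the ferritin heavy chain that stores iron, fell from 3483 ± 455 to 1915 ± 83 CPM. MMP9, the gelatinase that lipocalin-2 binds, had 13 counts in vector and 1 in BHLHE22 cells. TGM2, a transglutaminase, the enzyme class that anchors elafin to matrix, rose from 183 ± 19 to 398 ± 32 CPM. PLSCR1, whose product binds SLPI, rose from 23.2 ± 1.5 to 136 ± 17 CPM. TNFAIP6, a hyaluronan-binding partner of pentraxin 3, measured 2.74 ± 1.17 and 4.19 ± 0.38 CPM (not called). EXOC8, an exocyst subunit, fell by 0.86 on the log2 scale. The integrin chain ITGB2, which pairs with ITGAL to bind ICAM1, fell from 67.3 ± 2.5 to 30.6 ± 1.4 CPM, while ITGAL had 5 and 4 counts. ELANE, the elastase that SLPI and elafin inhibit, had 0 and 1 counts.

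Of 28 tested genes within 100 kb of the 8 genes, 8 rose, 8 fell and 12 did not pass. Of all tested genes, 25.1% rose and 24.3% fell. The counts per locus are small, and some neighbours overlap each other in position, so they are given as values only. Around LCN2, which rose, 5 of 7 tested neighbours fell and 0 rose. Around ICAM1, which also rose, 5 of 11 rose and 1 fell. PTX3 lies inside VEPH1, a gene on the opposite strand that shares 3.66% of the exon bases of PTX3. VEPH1 fell from 25.7 ± 3.8 to 16.9 ± 2.4 CPM. Use of strand in the counting is not stated in the labels. VEPH1 held 1813 counts in all against 21177 for PTX3.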

How the data were processed

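The authors deposited 1 table with whole-number read counts and FPKM values per Ensembl gene. The tools listed in the submitters' processing notes are HISAT2 2.1.0, StringTie 1.3.4b, edgeR and CASAVA 1.8, and the build is GRCh38 (hg38). The sources used here do not say what each tool did, which counting options were set or whether strand was used. Positions in the table are those of GENCODE 29 (GRCh38) for 97.6% of 58039 shared genes. The deposited FPKM values were used only to check the gene length behind them.

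From the deposited counts, genes were filtered with edgeR's filterByExpr (15945 of 58302 kept). Library sizes were scaled by TMM, and the 2 groups were compared by the robust, 2-sided quasi-likelihood test of edgeR 4.0.16 in R 4.3.3. Benjamini-Hochberg adjustment ran over all tested genes. CPM values use the scaled library sizes. Intervals of fold changes are 95% intervals from the fit's t distribution. Alternatives were a replicate block, DESeq2's size factors, unscaled library sizes, DESeq2 1.42.0, limma-voom (limma 3.58.1), 2 other filters, a threshold of 0.01, leaving out each library, and SAA1 and SAA2 summed. The fit was tested on simulated data, where it found the direction of known changes but the share of false calls lay above the threshold in each of 3 draws. The simulation changed far fewer genes than were called here, so the share of false calls in these data is not known from it. The 8 genes and the gene lists were chosen with earlier results of these data known. Named were the 8 genes, BHLHE22, up to 5 called genes per list with the smallest p and genes bound by role to the 8. NFKBIA and the NF-kappaB subunit genes, overlapping neighbours and the 2 most similar genes were named as well. Some genes of the lists are not reported here.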

Additional observations from a re-analysis of the deposited data

How the results depend on the processing

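In every one of 13 other settings the 5 rises and the fall of PTX3 kept their direction and an adjusted p under 0.05. Leaving out 1 library moved the log2 fold change of LCN2 between 0.93 and 1.08, PI3 between 1.29 and 1.47, SAA1 between 2.91 and 3.25, SAA2 between 3.25 and 5.09, ICAM1 between 0.46 and 0.65, PTX3 between -1.41 and -0.92, and the sum of SAA1 and SAA2 between 3.16 and 3.31. SLPI and TNFAIP2 kept their direction and passed the threshold only in the fits named with them above. An adjusted p under 0.01 left 4962 of 7876 calls over all genes, and 5 rises and 1 fall among the 8 genes. The count of rising receptors and adaptors was 5 to 8 with 1 library left out, against 10; fewer samples enter those fits. Unscaled library sizes put the median log2 fold change of all genes at 0.15, and called 5128 genes higher and 2890 lower, against 3996 and 3880. The replicate numbers share no stated culture or day. Deviations of same-numbered libraries correlated at 0.06, -0.01 and 0.04, and vector replicate 1 correlated best with BHLHE22 replicate 2, so the numbers were not taken as pairs. With the replicate number as a block, log2 fold changes were 1.00 for LCN2, 1.38 for PI3, 3.08 for SAA1, 3.71 for SAA2, 0.56 for ICAM1, -1.18 for PTX3, 0.22 for SLPI and 0.43 for TNFAIP2, and 7292 genes were called. Depth limits SAA2 most, with 9 counts in the vector group.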

Other observations

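The gene length behind the deposited FPKM values matters when these genes are compared with each other. For each gene the length follows from its count, its FPKM and the library's summed count. Among 4229 genes with 1 transcript in GENCODE 29 and at least 20 counts, this length equalled the merged exon length, within 0.1%, for 99.3%. Among 14489 genes with several transcripts it did so for 0.683%, while for 91.0% it equalled the sum of all distinct exons, so that bases in overlapping exons entered more than once. The median length of these genes was 1.56 times the merged length. For PI3, SLPI and PTX3 the ratio was 1.00, and for LCN2, TNFAIP2, SAA1, ICAM1 and SAA2 it was 1.95, 1.92, 1.77, 1.48 and 1.36. In BHLHE22 cells LCN2 and PTX3 were close in deposited FPKM, at 83.3 ± 5.5 and 79.9 ± 3.3 with overlapping ranges. Per kilobase of merged exons the ranges did not overlap, and LCN2 was at 155 ± 10 against 76.1 ± 2.8. The length is the same in every library and does not enter a fold change between the groups.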
